A study of Homo sapiens with 4 samples.

Results

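The response to DAXX knockdown was compared between 2 human neuroendocrine tumour cell lines, gene by gene. For each probe set the DAXX-KD level minus the control level, both log2, gave the knockdown difference of a line, and that of NCI-H727 was subtracted from that of QGP1. The result is called the line difference here. A positive value, the QGP1 side, means that a transcript stood higher after knockdown in QGP1 than the NCI-H727 arrays would give, and a negative value, the NCI-H727 side, means the reverse. All 54613 probe sets have such a value. They reduce to 19775 named genes, each represented by its brightest probe set, and 14648 of these had a mean level of at least 4.85, the 40th percentile of all probe sets, and are described below.

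By the labels, QGP1 comes from a neuroendocrine tumour of the pancreas and NCI-H727 from one of the bronchus. Cells of each line received by electroporation either DAXX siRNA (DAXX-KD) or a universal negative control siRNA, at 50 nM in all 4 groups. Of the 2 DAXX siRNAs named, it is not stated if they were mixed. Each of the 4 groups is 1 array, hybridised with biotin-labelled RNA. The line difference takes all 4 arrays and leaves 0 residual degrees of freedom, so values are given by size, with no test and no replicate error.

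DAXX is a histone chaperone that works with the remodeller ATRX to load H3.3 onto telomeres and repeats, and it also acts as a corepressor in PML nuclear bodies. Loss of DAXX or ATRX is common in pancreatic neuroendocrine tumours. Much of what follows concerns the ATF4 response, in which amino acid shortage or endoplasmic reticulum stress raises translation of the transcription factor ATF4, which with its partners induces amino acid enzymes, transporters, tRNA synthetases and, when stress persists, genes of growth arrest and cell death.

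The targeted gene itself differed between the lines. DAXX went from 8.52 to 6.56 in QGP1, 3.90-fold lower, and from 7.35 to 6.14 in NCI-H727, 2.31-fold lower, a line difference of -0.76. A second DAXX probe set gave knockdown differences of -2.14 and -0.83, a line difference of -1.31. The lines therefore differed in how far the DAXX signal was lowered, and this cannot be told apart from any other property of the line in the values below.

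The line names rest on the sample titles. For the pair of NCI-H727 samples the source field gives QGP1 instead, and the 4 descriptions all speak of ALDH high QGP1 cells. Markers were checked against the titles. NKX2-1, a transcription factor of lung and thyroid, was at 8.77 and 8.38 in the arrays titled QGP1 and at 3.35 and 3.23, under the filter level, in those titled NCI-H727. The bronchial neuroendocrine peptide GRP was at 12.80 and 11.76 against 5.37 and 4.12. NKX2-2, an islet transcription factor, was at 4.80 and 5.93 in the arrays titled QGP1 and at 9.17 and 9.25 in the others. These 3 markers run against the titles. The other lung markers, CALCA, FOXA2 and SFTPB, lay close to each other in the lines, at 13.72 and 13.54, 10.94 and 11.21, and 6.92 and 6.67 in the control arrays of QGP1 and NCI-H727. Among the islet markers, somatostatin (SST) at 13.83 and 13.07 against 11.87 and 11.80, PAX6 at 6.64 and 6.77 against 5.12 and 5.67, and ISL1 at 9.61 and 9.46 against 8.82 and 8.94 run with the titles, MNX1 lay between 8.54 and 9.03, and the islet factor PDX1 lay between 5.23 and 5.54 on all 4 arrays. The islet genes NKX6-1, GCG and INS were under the filter level on every array, as were all 3 measured pancreatic exocrine markers. Of the leukocyte markers, only PTPRC was under that level on every array. CD3E, CD79A and LYZ were above it on all 4 arrays, and CD14 was above it on the NCI-H727 arrays only. Line identity was not tested, and the titles are kept as names. A swap of both arrays of each line would turn every sign of the line difference and leave its size.

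The standard deviation over genes was 0.25 for the knockdown difference in QGP1, 0.33 in NCI-H727 and 0.37 for the line difference, which holds the spread of both. The central 95% of line differences lay between -0.67 and 0.82, and they ranged from -3.44 to 2.51. Genes are no independent replicates; across the 14648 of them, the knockdown differences of the lines had a Pearson correlation of 0.189 and a Spearman correlation of 0.0723. As a yardstick within these arrays, probe sets of 1 gene scattered around their gene's mean line difference with a pooled standard deviation of 0.320, over 7159 genes with at least 2 probe sets. Error between arrays or cultures is not in that yardstick.

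The QGP1 side was the larger of the sides. 201 genes (1.37%) had a line difference of at least 2-fold on the QGP1 side and 76 genes (0.519%) on the NCI-H727 side. At 1.5-fold the counts were 1008 (6.88%) and 561 (3.83%). With all probe sets of a gene averaged, the 2-fold counts were 89 and 42. Within the lines, 38 genes (0.259%) were at least 2-fold higher after knockdown in QGP1 and 34 (0.232%) lower, while in NCI-H727 26 (0.177%) were higher and 194 (1.32%) lower. At 1.5-fold these counts were 255 (1.74%) and 194 (1.32%) in QGP1 and 235 (1.6%) and 726 (4.96%) in NCI-H727. Most of the 201 were not genes that stood far above control in QGP1. Their median knockdown difference was 0.33 in QGP1 and -0.84 in NCI-H727, and for 92 of the 145 members with opposite signs in the lines the NCI-H727 difference was the larger. Another 47 were lower in both lines, each of them further in NCI-H727, and 9 were higher in both. On the NCI-H727 side, 69 of 76 genes (90.8%) had opposite signs, with a median of -0.48 in QGP1 and 0.72 in NCI-H727.

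**Figure D1:**
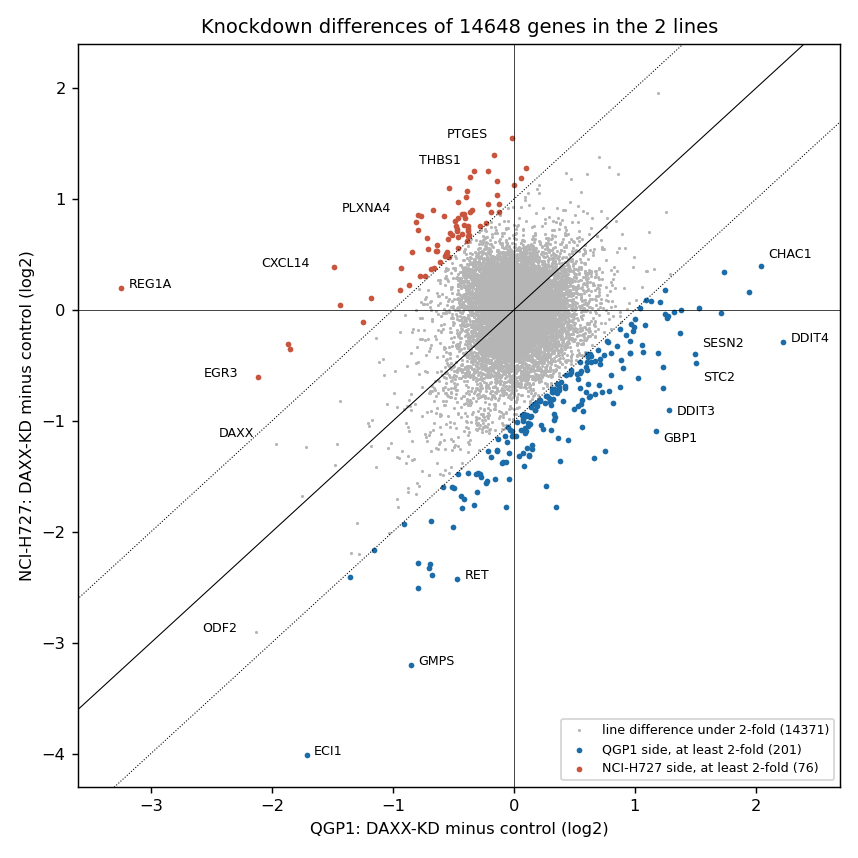
Knockdown difference of each of 14648 genes in QGP1 (horizontal, log2) and NCI-H727 (vertical, log2); the solid diagonal marks equal differences and the dotted lines a line difference of 2-fold. The 201 genes of the QGP1 side (blue) lie mostly below 0 on the NCI-H727 axis, and DDIT4 at 2.23 and -0.28 and REG1A at -3.25 and 0.20 stand farthest along the QGP1 axis.

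The leading programme of the QGP1 side was the ATF4 response. Of 55 listed genes, 52 were measured past the filter, and their median knockdown difference was 0.32 in QGP1 and -0.16 in NCI-H727, against 0.02 in each line over all genes. The median line difference was 0.51, the first in rank among the 51 lists with measured members. 19 of the 52 members (36.5%) had a line difference of at least 1.5-fold on the QGP1 side and 3 (5.77%) on the NCI-H727 side, beside 6.88% and 3.83% of all genes. 32 members (61.5%) were higher after knockdown in QGP1 and lower in NCI-H727 at any size, beside 24.7% of all genes. In these bulk arrays, RNA from fewer cells and less RNA per cell cannot be told apart. The list was chosen with these results in view.

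The transcription factors of the response led. Their median line difference was 0.97 over 7 genes, and 6 of 7 were higher in QGP1 and lower in NCI-H727, beside 24.7% of all genes. DDIT3, which encodes CHOP, the factor of the death branch, went from 8.31 to 9.60 in QGP1 and from 8.98 to 8.08 in NCI-H727, a line difference of 2.18 (4.54-fold). ATF4 itself went from 11.61 to 12.20 and from 11.97 to 11.60, a line difference of 0.97. In both genes the control array of NCI-H727 stood above that of QGP1, and after knockdown the order was turned. CEBPB, a dimer partner of ATF4, went from 9.15 to 10.08 in QGP1 and from 10.08 to 9.86 in NCI-H727. The stress factor ATF3 went from 8.29 to 8.64 and from 8.83 to 8.18. NUPR1, a small stress-induced chromatin protein, was the exception, with -0.21 in QGP1 and 0.39 in NCI-H727 at levels of 5.06 to 5.65.

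The effectors gave the largest values. DDIT4, an inhibitor of the growth kinase complex mTORC1, went from 9.11 to 11.34 in QGP1 and from 9.96 to 9.67 in NCI-H727. Its line difference of 2.51 (5.70-fold) was the highest of all genes, each taken by its brightest probe set. SESN2, a leucine sensor that also restrains mTORC1, went from 7.29 to 8.79 and from 7.60 to 7.20, and its second probe set repeated the pattern with 1.42 and -0.27. STC2, a secreted glycoprotein that inhibits the protease PAPPA, went from 7.02 to 8.52 and from 8.34 to 7.86, a line difference of 1.98. The second STC2 probe set gave 1.41 in QGP1 and 0.17 in NCI-H727, so the sign in NCI-H727 was not shared by both probe sets. JDP2, a repressor of the AP-1 family, went from 5.74 to 6.98 and from 6.72 to 6.20.

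Other effectors stood higher in QGP1 without a lower value of like size in NCI-H727. CHAC1, which degrades glutathione, went from 6.41 to 8.45 in QGP1 and from 6.16 to 6.56 in NCI-H727, a line difference of 1.64. TRIB3, a pseudokinase that damps ATF4 and CHOP, went from 9.01 to 10.55 and from 10.43 to 10.46, while its other probe set gave 0.16 and -0.03. INHBE, a subunit of activin E, was under the filter level at 3.91 in the QGP1 control and at 5.62 after knockdown, and went from 5.94 to 5.91 in NCI-H727. The KD array of QGP1 thus reached about the level that both NCI-H727 arrays held for TRIB3 and INHBE. GDF15, a secreted stress cytokine, went the other way on its brightest probe set, from 13.73 to 13.68 and from 11.42 to 12.02. The other 2 GDF15 probe sets lay on different sides, with line differences of -0.46 and 0.14. The hormone FGF21 also went the other way, with -0.31 and 0.23. XPOT, the exporter of tRNA from the nucleus, was lower in both lines, at -0.47 and -0.93.

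Enzymes of amino acid synthesis had a median line difference of 0.44 over 10 genes. CTH, which makes cysteine from cystathionine, went from 7.86 to 8.82 in QGP1 and from 6.97 to 6.69 in NCI-H727, and both of its probe sets lay on the QGP1 side, at 1.24 and 1.21. ASNS, the asparagine synthetase, went from 11.77 to 12.39 and from 11.01 to 11.0005. The serine pathway did not move as one. PHGDH, its first enzyme, differed by 0.28 and -0.34, PSAT1, the second, by 0.60 and 0.05, and PSPH, the last, by -0.22 and 0.49. The proline enzyme PYCR1 differed by -0.07 and 0.39. The transporters had the smallest median, 0.22 over 8 genes. SLC7A11, the cystine importer, differed by 0.40 and -0.16, and all 3 of its probe sets lay on the QGP1 side. SLC7A5 and SLC3A2, the subunits of the large neutral amino acid transporter, were higher in both lines.

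All 12 measured tRNA synthetases, which charge tRNAs with amino acids, had a positive line difference, from 0.12 to 0.82, beside 53.1% of all genes. 10 of the 12 were higher in QGP1 and lower in NCI-H727, beside 24.7% of all genes. AARS1, the alanine enzyme, went from 10.06 to 10.31 in QGP1 and from 10.32 to 9.75 in NCI-H727. SARS1, the serine enzyme, went from 10.79 to 11.12 and from 10.10 to 9.79. The median of 0.38 over the tRNA synthetases is close to the probe set scatter of 0.320, so single members stand little apart from that scatter.

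**Figure D2:**
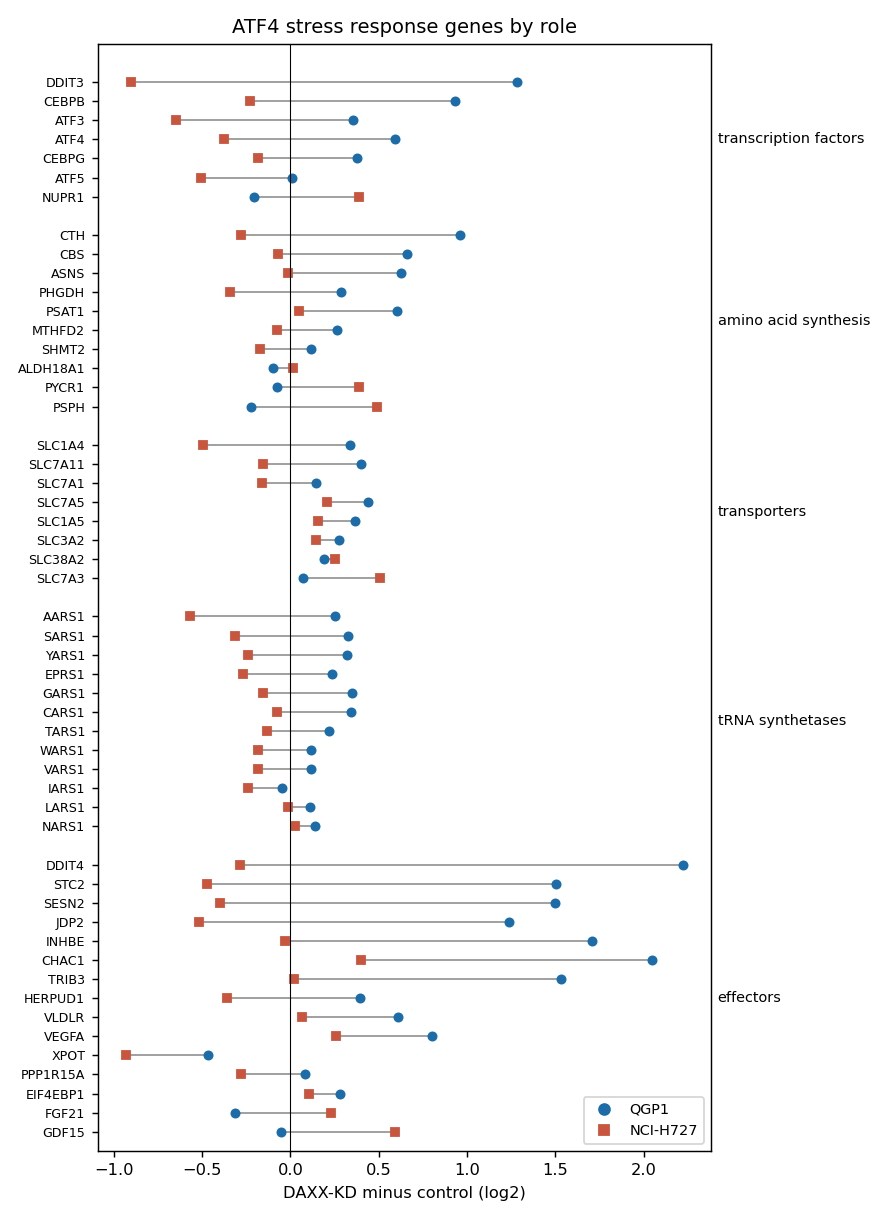
Knockdown difference (log2) of the 52 measured ATF4 response genes in QGP1 (circles) and NCI-H727 (squares), grouped by role and ordered within a role by line difference. The QGP1 point lies to the right of the NCI-H727 point in 44 of 52 genes (84.6%), beside 53.1% of all genes. All 12 tRNA synthetases are among them, and the gap is widest in DDIT4 (2.51), DDIT3 (2.18) and STC2 (1.98).

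ATF4 binds, as a dimer with a C/EBP protein, a composite element with the core TGATGNAA. Promoters of 300 bases, from 250 before to 50 after the start of the gene in RefSeq (GRCh38.p14), were searched for this core on both strands, and no other motif was searched. It was present in 12 of 40 matched promoters of the ATF4 list (30.0%). The share was 3.67% of all 27305 promoters and 2.00% of the 11701 promoters of genes past the filter. The list was made of ATF4 response genes, so a higher share may follow from how it was made. What ATF4 did in these arrays was not tested. The windows below show members in which the core, in capitals, begins at least 54 bases upstream of the start. In IARS1 and CARS1 it begins 13 and 2 bases upstream, and no window is shown. The windows give the gene's own strand, read 5′ to 3′. Where TTGCATCA is in capitals, the core lies on the other strand.
ATF3, chr1:212565190-212565249, plus strand: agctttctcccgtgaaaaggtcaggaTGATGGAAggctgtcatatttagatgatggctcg
ASNS, chr7:97872443-97872502, minus strand: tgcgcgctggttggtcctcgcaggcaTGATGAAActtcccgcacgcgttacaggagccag
AARS1, chr16:70289660-70289719, minus strand: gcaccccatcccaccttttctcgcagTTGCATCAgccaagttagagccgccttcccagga
CHAC1, chr15:40953236-40953295, plus strand: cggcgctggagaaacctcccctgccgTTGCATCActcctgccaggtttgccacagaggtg
HERPUD1, chr16:56931940-56931999, plus strand: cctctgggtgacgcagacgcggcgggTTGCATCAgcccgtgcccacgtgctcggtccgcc
FGF21, chr19:48755444-48755503, plus strand: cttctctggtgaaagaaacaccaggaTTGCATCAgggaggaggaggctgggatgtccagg

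Holding the core did not mark the members with the larger line difference. The 12 members with it had a median line difference of 0.38 and the 28 without it 0.56. ATF3, ASNS, AARS1, CHAC1 and HERPUD1 lay on the QGP1 side at 0.9995, 0.64, 0.82, 1.64 and 0.75, and FGF21 lay on the other at -0.54. A second probe set of HERPUD1 gave -0.09. Among all 160 promoters of the 2-fold QGP1 side, 3.12% held the core, and 3.33% of 60 on the NCI-H727 side. The match is a description of letters in a window.

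Neighbouring stress programmes were compared with it. The chaperones and degradation machinery of the endoplasmic reticulum did not share the QGP1 part of the pattern, with a median of -0.05 in QGP1 and -0.16 in NCI-H727 over 32 genes and 1 member past 1.5-fold, HERPUD1. All 16 chaperones were lower in NCI-H727, beside 47.3% of all genes. Of the 16, 11 were lower in both lines, beside 3304 of all 14648 genes. CALR, a calcium-binding chaperone, went from 9.84 to 9.69 in QGP1 and from 10.24 to 9.62 in NCI-H727. ERN1, the sensor IRE1, went from 9.34 to 9.84 and from 7.51 to 7.48. Its other 2 probe sets were higher in both lines, with line differences of -0.07 and 0.09. The list of mTORC1 inhibitors and autophagy genes had medians of 0.16 and -0.02 over 36 genes, with 7 members (19.4%) past 1.5-fold on the QGP1 side and 0 on the other, beside 6.88% and 3.83% of all genes. Besides DDIT4 and SESN2, it held TSC2, which with TSC1 restrains mTORC1 and went from 5.65 to 6.11 and from 5.63 to 5.37, and TFEB, the transcription factor of lysosomes, which went from 6.07 to 6.63 and from 7.28 to 7.12. WIPI1, an early autophagosome protein, reached its line difference of 1.19 through NCI-H727, where it went from 6.23 to 5.14 while QGP1 stayed at 8.21 and 8.31. This list's median depended on the probe sets used and was 0.01 without those marked as able to bind other transcripts.

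Next to the ATF4 genes, the QGP1 side held genes that were lower in both lines and far lower in NCI-H727. ECI1, a mitochondrial isomerase of fatty acid breakdown, went from 9.28 to 7.57 in QGP1 and from 9.76 to 5.75 in NCI-H727, 16.2-fold lower there. GMPS, which makes guanosine monophosphate, went from 9.89 to 9.04 and from 10.20 to 7.00, and its other probe sets gave line differences of 0.07 and 1.63. IQGAP1, a scaffold of the actin cortex, went from 11.26 to 10.57 and from 11.12 to 8.83, and all 3 of its probe sets lay between 1.60 and 2.07. The feedback inhibitor of EGF receptors ERRFI1 went from 9.27 to 7.92 and from 11.13 to 8.73. The matrix protein MATN2 went from 9.24 to 8.08 and from 8.25 to 6.09, the mitochondrial ribosomal protein MRPL45 from 9.23 to 7.94 and from 9.25 to 7.05, and ACADSB, of isoleucine breakdown, from 7.16 to 6.13 and from 7.33 to 5.32. MRPL45 and ACADSB, at 0.92 and 0.98, were just short of 2-fold in line difference. A second ACADSB probe set did not repeat it, with 0.06 and 0.14.

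RET, the receptor of glial cell line-derived growth factors, gave a line difference of 1.96 from 1 probe set. It went from 10.20 to 9.73 in QGP1 and from 7.66 to 5.23 in NCI-H727. The other 2 RET probe sets gave -0.45 to -0.43 for QGP1 and -0.10 to 0.07 for NCI-H727, which puts them on the NCI-H727 side. TMEM176A, a membrane protein of immune and epithelial cells, went from 5.19 to 5.57 and from 10.75 to 9.39.

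The NCI-H727 side was led by REG1A, a secreted protein of the exocrine pancreas and of regenerating gut and islets. It went from 8.96 to 5.72 in QGP1 and from 5.16 to 5.35 in NCI-H727, and its line difference of -3.44 (10.9-fold) was the largest in size of all genes. The exocrine enzymes CPA1, CEL and PNLIP, which mark acinar cells, lay between 2.74 and 4.17 on all 4 arrays. CXCL14, a chemokine of epithelia, went from 6.86 to 5.37 in QGP1 and from 4.71 to 5.09 in NCI-H727. IGFBP5, which binds insulin-like growth factors, went from 10.36 to 8.49 and from 12.40 to 12.09. The other 5 IGFBP5 probe sets were lower in both lines, with line differences from -1.12 to 0.01. These leading genes were carried by a lower value in QGP1.

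Others of the NCI-H727 side were carried by a higher value in NCI-H727. PTGES, the terminal synthase of prostaglandin E2, went from 6.41 to 7.97 there and from 5.36 to 5.34 in QGP1, and its second probe set differed by 0.12 and -0.26. PTGS2, the inducible cyclooxygenase upstream of it, had the other sign, from 5.80 to 5.05 in NCI-H727 and from 10.11 to 10.26 in QGP1. THBS1, the matrix glycoprotein thrombospondin, went from 7.62 to 8.88 in NCI-H727 and from 8.65 to 8.44 in QGP1, and all 4 of its probe sets lay on the NCI-H727 side. IL15RA, the receptor chain that presents interleukin 15, went from 7.21 to 8.41 and, in QGP1, from 6.23 to 5.87. CXCR4, the receptor of the chemokine CXCL12, went from 7.99 to 8.86 in NCI-H727 and from 7.12 to 6.71 in QGP1, and its 3 probe sets gave -1.27 to -0.88.

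Genes that were at least 1.5-fold higher after knockdown in 1 line and at least 1.5-fold lower in the other were few. 16 genes (0.109%) were higher in QGP1 and lower in NCI-H727, and 7 (0.0478%) the reverse. DDIT3 had the largest line difference among those bright in both lines. GABRA2, a GABA receptor subunit, went from 4.24 to 4.999 in QGP1 and from 5.94 to 4.67 in NCI-H727, so each line had an array under the filter level, and its second probe set repeated both signs with 0.88 and -0.61. CXCL2, a chemokine for neutrophils, went from 8.84 to 9.63 and from 7.02 to 6.29. RASSF9, an endosomal protein, went from 6.89 to 7.59 and from 8.24 to 7.56, and its other probe set differed by 0.73 and -0.52. SNTB1, a syntrophin of the dystrophin complex, went from 5.49 to 6.51 and from 8.75 to 8.13, and the long noncoding RNA LINC00992 from 7.43 to 8.16 and from 6.51 to 5.77. B3GALT5-AS1, an antisense RNA, went from 4.03 to 5.26 and from 7.49 to 6.79.

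In the reverse group, LPL, the lipase that frees fatty acids from lipoproteins, went from 9.20 to 8.44 in QGP1 and from 4.67 to 5.52 in NCI-H727, and a second probe set had the same signs, -0.47 and 0.31. PLXNA4, a semaphorin receptor, went from 5.18 to 4.39 and from 6.94 to 7.80, with the other 2 probe sets at -0.63 and -0.58. HAS3, a hyaluronan synthase, went from 5.87 to 5.06 and from 6.82 to 7.62. The calcium channel TRPV2 went from 6.26 to 5.60 and from 6.81 to 7.71. PMEPA1, an inhibitor of TGF-beta signalling, went from 4.88 to 4.09 and from 7.17 to 7.89, but its other 2 probe sets gave -0.13 and -0.06. The cytokine feedback inhibitor SOCS3 and the bradykinin receptor BDKRB2 complete the group, at -1.37 and -1.23.

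**Figure D3:**
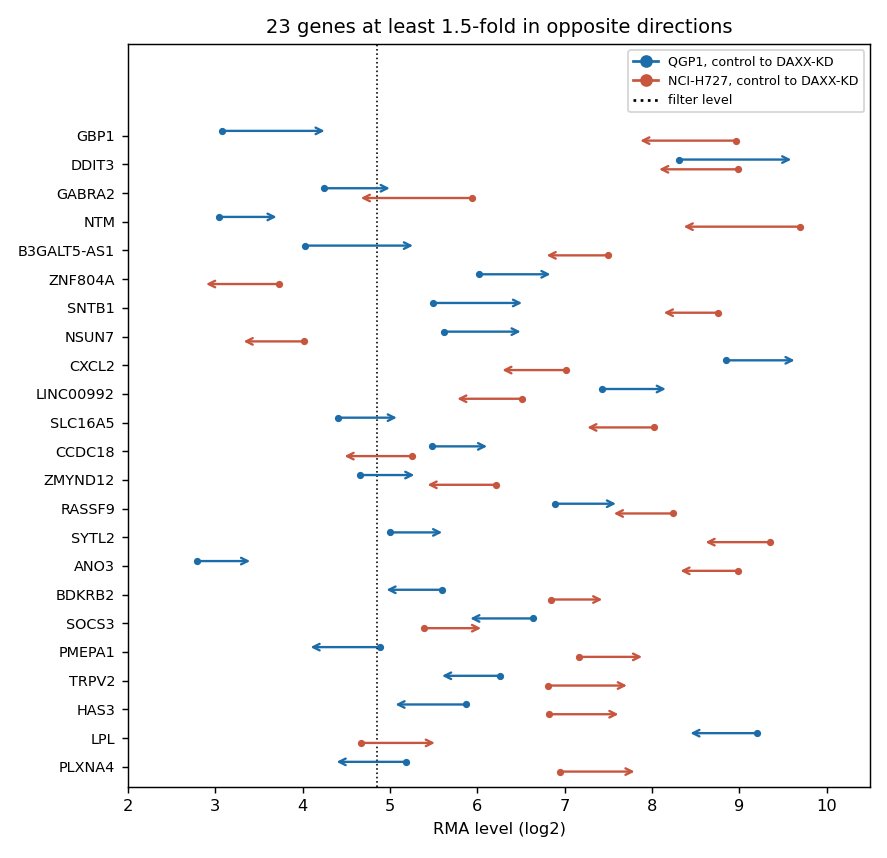
RMA level (log2) of the 23 genes that differed at least 1.5-fold in opposite directions; arrows run from the control to the DAXX-KD array, QGP1 in blue and NCI-H727 in red, and the dotted line is the filter level of 4.85. In GBP1, NTM and ANO3 both QGP1 arrays, and in ZNF804A and NSUN7 both NCI-H727 arrays, lie under that level.

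A response in 1 line with none in the other was defined as at least 2-fold in the first and within 1.2-fold in the second, where both lines had an array at or above the filter level. 9 genes (0.0614%) were higher in QGP1 by this rule and 3 (0.0205%) lower, and 10 (0.0683%) were higher in NCI-H727 and 56 (0.382%) lower. NCI-H727 thus had more such genes, most of them on the lower side. Its knockdown differences were also wider, with a variance 1.72 times that of QGP1. With both lines scaled to 1 spread the counts came close, at 19 higher and 5 lower for QGP1 and 5 higher and 22 lower for NCI-H727.

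Besides INHBE and TRIB3, the QGP1-only higher genes held several functions. TFF1, a trefoil peptide of gastric mucus, went from 9.50 to 10.88 in QGP1 and stayed at 13.72 on both NCI-H727 arrays. RUNDC3B went from 6.89 to 8.27 and from 5.43 to 5.22, with a second probe set at 0.99 and 0.18. The annexin ANXA3 went from 6.75 to 8.02 and from 8.20 to 8.15. ZEB1-AS1, an antisense RNA of the ZEB1 locus, went from 4.33 to 5.58 and from 5.59 to 5.55. NKX2-2 was at 4.80, below the filter, and 5.93 in QGP1 and at 9.17 and 9.25 in NCI-H727. For TFF1, ANXA3 and NKX2-2 the QGP1 level after knockdown remained below that of either NCI-H727 array. PECAM1, an endothelial marker, went from 5.74 to 6.80 and from 5.43 to 5.64. The endothelial markers VWF, at 4.93 and 4.92 in QGP1, and CDH5, at 3.54 and 3.32, did not stand higher with it, and its 2 other probe sets gave line differences of -0.41 and 0.36. The lower genes were REG1A, the androgen-repressed long noncoding RNA DRAIC, from 8.85 to 7.71 and from 11.30 to 11.05, and LOC101928419.

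The NCI-H727-only lower genes were led by ALDH1A3, an aldehyde dehydrogenase that makes retinoic acid. It went from 8.37 to 6.59 in NCI-H727 and from 5.51 to 5.45 in QGP1, a line difference of 1.71. ALDH1A1, the related enzyme, went from 11.11 to 10.42 in NCI-H727 and from 10.86 to 10.71 in QGP1. Over 17 measured aldehyde dehydrogenases the medians were -0.06 in QGP1 and -0.10 in NCI-H727. Of the 17, 12 (70.6%) had a line difference above 0, beside 53.1% of all genes. At least 1.5-fold lower were 3 in NCI-H727 and 0 in QGP1, beside 4.96% and 1.32% of all genes. EDIL3, an integrin ligand of the matrix, went from 5.34 to 3.82 and, in QGP1, from 6.02 to 5.98. MYRIP, which links secretory granules to myosin, went from 8.27 to 7.02 and from 7.92 to 8.07. APBB2, a binding partner of the amyloid precursor protein, went from 7.21 to 5.92 and from 9.07 to 9.14. All 6 of its probe sets lay on the QGP1 side, the other 5 with line differences of 0.17 to 0.97. CCDC88A, the actin-binding protein girdin, went from 8.59 to 7.38 and from 9.29 to 9.44. Its other 4 probe sets differed by only -0.48 to -0.04 in NCI-H727, with line differences of -0.01 to 0.47. The mannosyltransferase PIGZ went from 7.65 to 6.33 and from 5.94 to 6.07. Long genes were frequent in this class: 26 of the 56 (46.4%) spanned over 100 kb, beside 17.4% of all genes. ALDH1A3 and PIGZ were not among the 26.

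Genes of several kinds were higher in NCI-H727 alone. GAL, the neuropeptide galanin, went from 9.99 to 11.27 in NCI-H727 and from 11.11 to 11.21 in QGP1. BMP4, a bone morphogenetic protein, went from 6.25 to 7.29 and from 5.46 to 5.32. The deubiquitinase OTUB2 went from 7.13 to 8.32 and from 6.52 to 6.58, with its 3 probe sets between -1.13 and -0.71. PTGES and THBS1 belong here as well.

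Some large line differences arose where 1 line had no array at the filter level. 280 genes reached the level in QGP1 alone, of which 16 (5.71%) were past 2-fold on the QGP1 side, and 413 reached it in NCI-H727 alone, of which 24 (5.81%) were, beside 1.15% of the 13955 genes seen in both lines. Differences between dim values are close to background on the array, and the 2-fold counts among genes seen in both lines were 161 and 59. SPX, the precursor of the peptide spexin, went from 7.31 to 9.25 in QGP1 and lay at 3.84 and 4.001 in NCI-H727. The circadian repressor BHLHE41 went from 7.06 to 8.25 in QGP1, and APCDD1, an inhibitor of Wnt signalling, from 7.17 to 5.92, with 4.50 and 4.11, and 4.37 and 4.26, in NCI-H727. C6orf58 went from 5.79 to 7.53 in QGP1. In these genes the bright line carried the difference.

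Genes seen in NCI-H727 alone gave similar cases. GSTT1, a glutathione transferase, went from 9.22 to 7.44 in NCI-H727 and lay at 4.31 and 4.66 in QGP1. The long noncoding RNA UCA1 went from 8.58 to 6.99, the integrin ligand NPNT from 8.51 to 7.10, and the cell adhesion gene NTM from 9.70 to 8.36. On the other side, LY6K, a surface antigen, went from 9.45 to 10.85, the Wnt antagonist SFRP1 from 6.68 to 7.79, the serotonin receptor HTR2A from 7.98 to 9.001 and the reductase AKR1B10 from 9.29 to 10.14. In TTC22, EMP3 and VWDE the dim line carried the value. TTC22 went from 4.20 to 2.77 in QGP1 and from 9.69 to 9.74 in NCI-H727, and EMP3, a small membrane protein, from 4.60 to 3.67 and from 5.81 to 6.19. VWDE, seen in QGP1 alone, went from 9.01 to 8.68 there and from 2.22 to 3.48 in NCI-H727. For GBP1, an interferon-induced GTPase, the dim QGP1 arrays gave 3.08 and 4.25 while NCI-H727 went from 8.96 to 7.87. Its other 2 probe sets were lower in QGP1, at -0.52 and -0.34.

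Other probe sets of the same gene repeated the side in part. Of the 201 genes on the QGP1 side, 97 had other probe sets past the filter, and in 64 of them (66.0%) all others had the same sign. On the NCI-H727 side this held for 16 of 26 genes (61.5%), and among all genes with several probe sets for 50.1%. All others reached 1.5-fold in 30.9% and 23.1%, against 6.62% of all genes. The genes whose least probe set was largest were SESN2, IQGAP1, GABRA2, TMEM87B, OPTN, RASSF9, STC2 and CTH on the QGP1 side. OPTN, an autophagy receptor, went from 8.59 to 8.93 in QGP1 and from 8.93 to 7.96 in NCI-H727, and TMEM87B, a Golgi protein, from 9.02 to 9.13 and from 8.80 to 7.55. On the NCI-H727 side they were TMEM64, CXCR4, SYTL5, KCNT1, LPL, MT1F, DAXX and OR7E104P. The metallothionein MT1F, a member of a family of near-identical copies, went from 11.61 to 11.32 and from 10.74 to 11.45. SYTL5, which tethers vesicles, went from 8.51 to 7.95 and from 11.03 to 11.34.

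The immediate early genes, which respond within minutes to growth factors or calcium, lay mostly on the NCI-H727 side. Their median was -0.15 in QGP1 and 0.12 in NCI-H727 over 30 genes, with a median line difference of -0.15. The lines were not simply opposed: 10 members (33.3%) were lower in QGP1 and higher in NCI-H727, 10 were lower in both and 9 higher in both. 1 member (3.33%) was higher in QGP1 and lower in NCI-H727. Of all genes, 23.5% were lower in QGP1 and higher in NCI-H727, and 24.7% the reverse. At least 1.5-fold lower were 6 members in QGP1 and also 6 in NCI-H727, beside 1.32% and 4.96% of all genes. In line difference, 6 members were past 1.5-fold on the NCI-H727 side and 1 (3.33%) on the QGP1 side, beside 3.83% and 6.88% of all genes. EGR3, a zinc finger factor, went from 8.09 to 5.97 in QGP1 and from 5.87 to 5.27 in NCI-H727, so its control level also differed between lines. NPAS4, a neuronal activity factor, went from 6.37 to 4.51 in QGP1 and was under the filter level on both NCI-H727 arrays. Its second probe set differed by only -0.26 and 0.11, a line difference of -0.38. The AP-1 subunit JUN went from 11.42 to 10.65 and from 9.58 to 9.65, and all 4 of its probe sets lay on the NCI-H727 side. FOSB, another AP-1 subunit, went from 6.80 to 5.86 and from 5.59 to 5.39, and EGR4 from 6.29 to 5.68 and from 5.02 to 5.45. EGR1 had the other sign, from 12.63 to 12.48 and from 9.84 to 9.21, in all 3 of its probe sets. The 1 member past 1.5-fold on the QGP1 side was ATF3, which is also in the ATF4 list.

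Genes of the centriole and primary cilium had medians of 0.11 in QGP1 and -0.24 in NCI-H727 over 30 genes. 11 members (36.7%) were past 1.5-fold on the QGP1 side and 0 on the other, beside 6.88% and 3.83% of all genes. CNTRL, a protein of the mature centriole, went from 7.10 to 7.50 in QGP1 and from 6.58 to 6.09 in NCI-H727. CEP290, of the transition zone, went from 6.52 to 6.84 and from 7.96 to 7.50, with a second probe set at 0.28 and -0.58. CEP128, of the appendages, was lower in both lines, from 7.38 to 7.00 in QGP1 and from 7.70 to 6.23 in NCI-H727. ODF2, an appendage protein, was low in both, from 7.82 to 5.69 and from 7.32 to 4.42. SCLT1 reached 1.05 on its brightest probe set and -0.55 and -0.32 on the others, and the other CEP152 probe sets lay at 0.00 and 0.03. The list's genes were long, with a median span of 63.2 kb beside 27.3 kb for all genes, and length is taken up below.

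Zinc finger genes of chromosome 19 showed a like shift. The cluster at 19q13.4 had medians of 0.12 and -0.24 over 22 genes, and 15 of them (68.2%) were higher in QGP1 and lower in NCI-H727, beside 24.7% of all genes. 6 members (27.3%) were past 1.5-fold on the QGP1 side and 0 on the other, beside 6.88% and 3.83% of all genes. ZNF665 went from 7.17 to 7.28 in QGP1 and from 8.99 to 7.98 in NCI-H727, ZNF615 from 7.16 to 7.36 and from 8.37 to 7.83, and ZNF616 stayed at 6.55 in QGP1 and went from 7.42 to 6.80. The cluster at 19p12 had medians of 0.05 and -0.17 over 19 genes, with 1 member past 1.5-fold on each side. ZNF626 was on the NCI-H727 side, from 7.91 to 8.48 there, and a second probe set gave -0.03. Members of these clusters are near copies of each other, so probes may bind several of them. Many KRAB zinc finger proteins, of which these clusters encode a large share, bring silencing machinery to repeats.

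Genes around DAXX itself stood close to even. The list of histone H3.3 deposit, silencing and PML body genes had medians of 0.01 and -0.09 over 33 genes, with 0 past 1.5-fold on the QGP1 side and 1 on the other, DAXX. ATRX, the partner of DAXX, went from 9.74 to 9.59 in QGP1 and from 8.34 to 7.74 in NCI-H727, with all 3 probe sets on the QGP1 side. SP100, a component of PML bodies, went from 7.65 to 8.37 and from 8.23 to 8.46, and the histone chaperone ASF1B from 8.20 to 8.44 and from 8.92 to 8.62. Genes mutated or altered in pancreatic neuroendocrine tumours had medians of 0.06 and -0.26 over 13 genes, and 10 of them had a positive line difference, beside 53.1% of all genes. In this group the growth kinase AKT1 went from 7.08 to 6.92 and from 7.71 to 6.82, and MEN1, the menin gene, from 7.62 to 7.67 and from 8.12 to 7.94.

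Other lists held single genes of note. In the interferon response the medians were 0.11 and 0.10 over 51 genes, with 5 members (9.80%) past 1.5-fold on the QGP1 side and 3 (5.88%) on the other, close to the 6.88% and 3.83% of all genes. IFIH1, a sensor of double-stranded RNA, went from 5.78 to 6.47 in QGP1 and from 7.78 to 7.79 in NCI-H727. RIGI, a related sensor, went from 7.27 to 7.67 and from 5.87 to 5.60, but its other probe sets gave -0.42 and -0.14. DDX60L went from 3.25 to 4.57 in QGP1, both under the filter level, and stayed at 7.19 and 7.17 in NCI-H727. IRF7 and OAS2 were on the NCI-H727 side, at -0.62 and -0.87. Among matrix genes, VCAN, the proteoglycan versican, went from 5.86 to 6.40 in QGP1 and from 11.09 to 10.38 in NCI-H727 with all 5 probe sets on the QGP1 side, while the basement membrane collagen COL4A2 went from 8.58 to 9.07 in NCI-H727 and lay at 4.47 and 3.98 in QGP1.

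Neuroendocrine genes differed between lines in single members. Secretory machinery was lower in both lines, with medians of -0.16 and -0.25 over 36 genes. SCGN, the calcium sensor secretagogin, went from 7.61 to 8.11 in QGP1 and from 9.42 to 8.53 in NCI-H727. CADPS, which primes dense core vesicles, stayed at 7.81 and 7.93 in QGP1 and went from 8.76 to 7.71 in NCI-H727. DDC, the decarboxylase of amine synthesis, went further in QGP1, from 11.66 to 10.59 against 11.41 to 10.83. Peptides and hormones had medians of 0.01 and 0.22 over 22 genes, with GAL and VIP higher in NCI-H727 and SST lower in QGP1. VIP, a gut and neuronal peptide, went from 10.29 to 10.91 and lay at 2.97 and 2.82 in QGP1. ADCYAP1, the peptide PACAP, went from 9.97 to 8.70 in NCI-H727 and lay at 3.28 and 3.07 in QGP1. Its second probe set gave 1.12 in QGP1 and -1.87 in NCI-H727, a line difference of 2.99. With brighter genes alone the median line difference of the peptides turned sign (0.19).

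Metabolic lists tilted either way. Fatty acid and branched amino acid breakdown had medians of 0.05 and -0.11 over 37 genes, with 31 of 37 (83.8%) above 0 in line difference, beside 53.1% of all genes. 5 members (13.5%), ECI1 first at 2.30, were past 1.5-fold on the QGP1 side and 0 on the other, beside 6.88% and 3.83% of all genes. BCAT1, the cytosolic transaminase of branched amino acids, went from 10.39 to 10.90 in QGP1 and from 11.20 to 10.94 in NCI-H727. Mitochondrial ribosomal proteins had the opposite tilt, 0.02 and 0.12 over 71 genes. 54 of them were below 0 in line difference and 17 (23.9%) above, beside 53.1% of all genes above 0. Cell cycle genes had a median line difference of 0.12 over 64 genes. MKI67, a proliferation marker, went from 8.59 to 8.89 and from 10.49 to 10.18, with all 4 probe sets on the QGP1 side. Oxidative phosphorylation (54 genes), cytosolic ribosomal proteins (51) and 13 housekeeping genes had 0 members past 1.5-fold on either side and median line differences of 0.03, 0.01 and -0.05. In all, 26 of the 51 lists had a median line difference within 0.1 of 0.

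**Figure D4:**
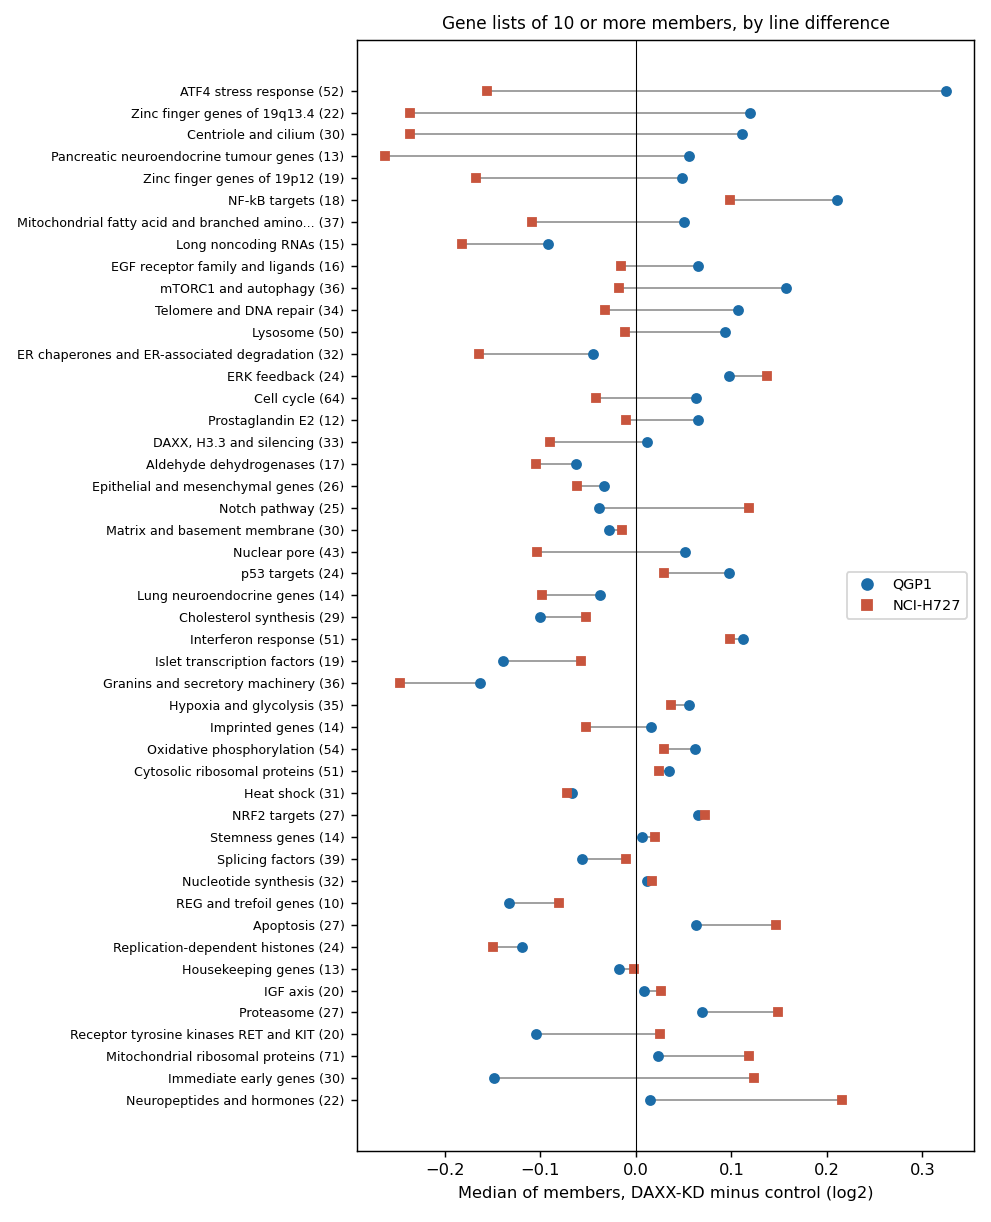
Median knockdown difference (log2) of each list with at least 10 measured members in QGP1 (circles) and NCI-H727 (squares), ordered by median line difference, with the number of members in brackets. The ATF4 response stands at the top with 0.32 and -0.16, and the immediate early genes stand near the bottom with -0.15 and 0.12.

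Gene length went with the NCI-H727 response and hardly with that of QGP1. Length here is the span of the gene in RefSeq, introns included, known for 14631 genes. Genes were ranked into 10 deciles of length. From decile 1 (median 2.41 kb) to decile 10 (249 kb), the median knockdown difference went from 0.08 to -0.10 in NCI-H727 while in QGP1 it was -0.0044 and 0.02 in these deciles and at most 0.04 in any. The share of genes lower after knockdown in NCI-H727 went from 34.8% to 62.4%. The share of genes past 2-fold on the QGP1 side was 0.751% in decile 1 and 3.96% in decile 10, beside 1.37% of all genes. Decile 10 exceeded decile 1 by 0.21 in median line difference, and by 0.12, 0.22 and 0.21 within the low, middle and high terciles of mean level. Genes of the 2-fold QGP1 side had a median span of 60.6 kb and those of the NCI-H727 side 23.0 kb. The median span was 24.0 kb in the ATF4 list and 63.2 kb in the centriole and cilium list, beside 27.3 kb for all genes. By role, the ATF4 medians were 5.03 kb for transcription factors and 13.7 kb for effectors. They were 30.4 kb for amino acid synthesis, 34.1 kb for transporters and 40.7 kb for tRNA synthetases. The part of length in the values of these lists was not tested. Mean level also went with the line difference: the dimmest decile of genes had medians of -0.05 in QGP1 and 0.11 in NCI-H727, and decile 6 had 0.05 and -0.06.

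**Figure D5:**
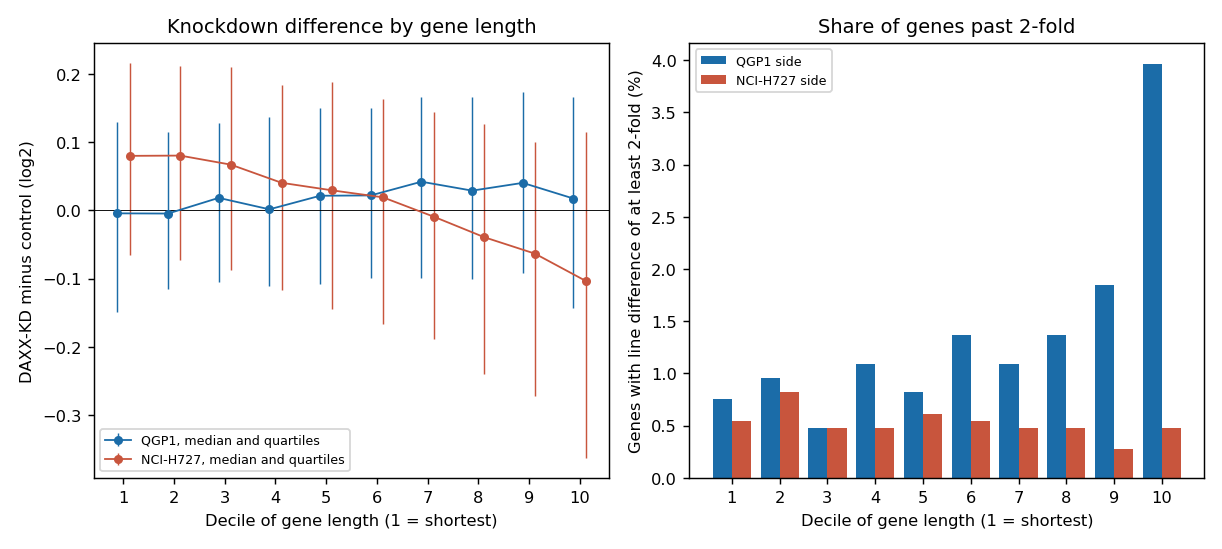
Left, median and quartiles of the knockdown difference (log2) in each decile of gene length for QGP1 (blue) and NCI-H727 (red); right, share of genes (%) in each decile with a line difference of at least 2-fold on either side. The NCI-H727 median goes from 0.08 in decile 1, the shortest genes, to -0.10 in decile 10, and the QGP1 side holds 3.96% of decile 10.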

How the data were processed

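Total RNA of 4 samples, 1 per group, was labelled with a 3′ IVT kit and hybridised to Affymetrix expression arrays. The deposited values are log2 RMA levels of 54613 probe sets, which the authors made, as the submitters' processing notes say, with affy 1.40.0 in R 3.0.3. RMA puts all 4 arrays on 1 distribution (array medians 5.31 to 5.36), so a global difference in RNA amount is not in the values. Genes were named from the platform annotation: 41091 probe sets had 1 symbol, 1801 several and 11721 none, and 41037 were found by Entrez identifier in RefSeq (GRCh38.p14) (0 symbols updated). The probe set with the highest mean stood for its gene, and a mean level at or above the 40th percentile was required.

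The line difference was computed in Python 3.11.15 with numpy 2.4.6 and pandas 2.3.3, drawn with matplotlib 3.10.9, and tested on simulated data. The noise in that simulation was far below the spread of the measured differences. The simulation therefore checked the computation and not the reliability of values from single arrays. With 1 array per group no test was made, and arrays give no counting depth: their number limits the precision. The members and gene lists were chosen with earlier results of these data known. Named genes are the 12 highest and 12 lowest line differences among genes seen in both lines, up to 6 of each class of 1 line, up to 12 genes in opposite directions, 8 each way repeated over probe sets, 6 each way among genes seen in 1 line, up to 6 members of each list and those needed to show its roles, DAXX and STC2. Alternatives were other filters, averaging all probe sets of a gene, leaving out probe sets with x_at or s_at in their name, 3 rescalings and a wider limit for the other line.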

Additional observations from a re-analysis of the deposited data

Results flagged for a closer look

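In 23 genes the lines moved in opposite directions by at least 1.5-fold each. With 1 array per group the difference was not tested. Higher after knockdown in QGP1 and lower in NCI-H727 were GBP1 (line difference 2.27), DDIT3 (2.18), GABRA2 (2.03), NTM (2.00), B3GALT5-AS1 (1.94), ZNF804A (1.655), SNTB1 (1.64), NSUN7 (1.57), CXCL2 (1.52), LINC00992 (1.47), SLC16A5 (1.43), CCDC18 (1.41), ZMYND12 (1.4035), RASSF9 (1.38), SYTL2 (1.33) and ANO3 (1.27). The reverse held for PLXNA4 (-1.65), LPL (-1.61), HAS3 (-1.61), TRPV2 (-1.565), PMEPA1 (-1.51), SOCS3 (-1.37) and BDKRB2 (-1.23). In GBP1, NTM, ANO3, ZNF804A and NSUN7 both arrays of 1 line lay under the filter level. Other GBP1 probe sets were lower in QGP1 (-0.52 and -0.34). So were the other NTM probe sets (-0.23 and -0.18), with line differences of -0.17 and 1.10. The other probe sets of CCDC18 and SOCS3 gave line differences of -0.0933 and 0.0471. With all probe sets of a gene averaged, the class held 6 genes one way and 2 the other.

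In 4 lists the medians of the lines lay on opposite sides of 0 by at least 0.1 each, and this difference was not tested either. The median line difference was 0.51 for the ATF4 response, 0.36 for the zinc finger genes of 19q13.4, 0.33 for centriole and cilium genes and -0.15 for immediate early genes.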

How the results depend on the processing

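No paired analysis was possible because each group is 1 array. For the same reason no array was left out.

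Averaging all probe sets of a gene moved the most values. The 2-fold sides went from 201 and 76 genes to 89 and 42 (82 and 39 shared), the genes of NCI-H727 alone to 3 higher and 28 lower, and the genes in opposite directions to 6 and 2. With the 60th percentile filter, the NCI-H727 side held 43 genes, and 9 were higher in QGP1 and lower in NCI-H727. With both lines at equal spread, QGP1 alone had 19 higher and 5 lower genes and NCI-H727 alone 5 and 22. With the other line within 1.5-fold, QGP1 alone had 17 and 5, and NCI-H727 alone 115 lower. Without x_at and s_at probe sets, 6 were higher in NCI-H727 alone.

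Median line differences moved as follows. With the mean of probe sets they were 0.45 for the ATF4 response, 0.0692 for mTORC1 and autophagy, 0.17 for the 19p12 cluster and -0.0006 for matrix genes. Without x_at and s_at probe sets they were 0.0078 for mTORC1 and autophagy, -0.30 for immediate early genes, 0.41 for centriole and cilium, 0.13 for interferon, -0.0428 for matrix and 0.17 for cell cycle. With no filter mTORC1 and autophagy gave 0.12 and matrix 0.0133, and with the 60th percentile 0.11 and 0.315, where the peptides reversed to 0.19. With running-median centring they were -0.22 for immediate early genes, 0.26 for centriole and cilium, 0.13 for 19p12, -0.0737 for peptides, 0.12 for fatty acid and branched amino acid breakdown and 0.0807 for cell cycle. The cause was not tested.

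The length settings and the count among genes seen in both lines were chosen after seeing the data. Length decile 10 minus decile 1 in line difference was 0.21, and 0.15 with running-median centring, 0.24 without x_at and s_at and 0.12 in the low tercile of level. In NCI-H727 alone it was -0.18, and -0.14, -0.17 (mean of probe sets), -0.20 (without x_at and s_at), -0.21 (60th percentile), -0.0858 (low tercile of level) and -0.21 (middle tercile), and in QGP1 0.0046 with running-median centring. Of the named genes, HERPUD1 (-0.0916) and RIGI (-0.14) reversed without x_at and s_at probe sets. With the mean of probe sets 53 of 141 moved by more than the scatter and 0 reversed.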

Other observations

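Probe sets with no gene symbol or with several were not in the comparisons above. Of 5553 such probe sets past the filter, 63 (1.13%) had a line difference of at least 2-fold on the QGP1 side and 31 (0.558%) on the NCI-H727 side. Among 27215 probe sets with 1 symbol the counts were 470 (1.73%) and 123 (0.452%).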
